A study of Arabidopsis thaliana with 9 samples.

Results

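Of the small RNA clusters placed on chromosomes 1 to 5 of Arabidopsis thaliana, 1806 of 28897 (6.25%) were led by an RNA of 25 nt or longer. A cluster is a stretch of the genome where small RNA reads pile up, and the RNA that leads it is the most abundant single sequence in it. The members were chosen by the length of that sequence and by nothing else, so their length is not a result. The small RNAs came from shoots of wild-type Col-0 plants, with 3 biological replicates in each of 3 conditions. All plants grew on half-strength MS medium with Fe for 14 days and were then moved to fresh medium for 3 days and again for the last 24 hours. The Fe sufficient plants (+Fe) had Fe throughout, the Fe deficient plants (-Fe) had none on either of the later media, and the Fe resupply plants had none for the 3 days and were given Fe for the last 24 hours. Values are the deposited log2 normalized values, 1 for each cluster and library, and are given in the order of replicates 1, 2 and 3. Read totals and read counts were not used here, so the sequencing depth is unknown and no counting error is given.

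In plant shoots the Dicer-like enzymes cut double-stranded RNA into small RNAs of defined sizes. The microRNAs and the siRNAs that direct DNA methylation are the best known of these. Longer RNAs in a small RNA library are mostly pieces of other transcripts. Pieces of tRNAs are the most studied of them, and those that keep the 5′ end of the tRNA are called 5′ tRNA fragments. Small nucleolar RNAs (snoRNAs) guide the chemical modification of rRNA, and small nuclear RNAs (snRNAs) take part in splicing.

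Most of the members lay in genes. The class was an exon of a protein-coding mRNA for 1522 members (84.3%), a tRNA gene for 128 (7.09%) and a snoRNA gene for 38 (2.10%). Another 39 lay in introns, 36 in other non-coding RNAs, 5 in snRNA genes and 2 in miRNA precursors, and 36 (1.99%) overlapped no annotated feature. Classes went by the place of the leading RNA, or by the whole cluster where that RNA was not found exactly. The latter was so for 102 members, 81 of them classed in mRNA exons. Clusters led by 24-nt RNAs were placed differently, with 27.5% in mRNA exons, 0.23% in tRNA genes and 65.4% outside any annotated feature. Clusters led by RNAs under 20 nt were closer to the members, with 82.9% in mRNA exons, 3.12% in tRNA genes and 1.01% in snoRNA genes. In number, 136 of them were at tRNA genes and 44 at snoRNA genes. Of the RNAs under 20 nt, 63.26% were found exactly in their cluster, against 94.35% of the members. The makeup differed sharply across the length limit. Among clusters led by 24-nt RNAs, 3999 of 14533 lay in mRNA exons, against 501 of 590 led by 25-nt RNAs. The median value was 4.36 for the former and 3.15 for the latter on the log2 scale. The first base also differed, since 74.2% of 24-nt RNAs began with A, against 31.3% of the members and 33.2% of the RNAs under 20 nt.

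**Figure D1:**
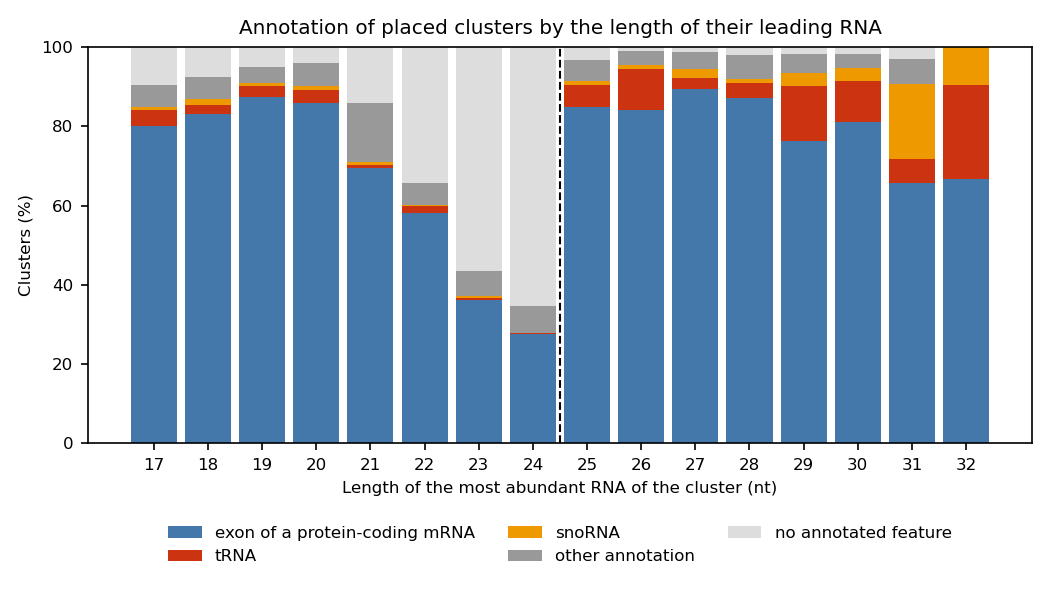
Share of placed clusters (y axis, percent) in each annotation class by the length of their most abundant RNA (x axis, nt). Lengths from 17 to 32 nt are drawn, and the dashed line marks the limit that defines the members; the share in mRNA exons is 27.5% at 24 nt and 84.9% at 25 nt.

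The number of members fell with length, from 590 members at 25 nt and 456 at 26 nt to 58 at 30 nt and 2 at 36 nt. The share at tRNA genes went up and down with length, at 5.59% for 25 nt, 10.5% for 26 nt, 2.91% for 27 nt, 3.98% for 28 nt and 13.9% for 29 nt. The leading RNA was found letter for letter within its own cluster for 1704 members, and the other 102 differed from the genome there by exactly 1 base. The same RNA led more than 1 cluster in 115 members, 109 of them at tRNA genes, so that the members carried 1714 different RNAs. Such clusters share their sequence, and how the reads were divided among them was not tested.

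The clusters at tRNA genes are shown first because their RNAs have 1 shared form. Of the 114 RNAs found exactly in a tRNA gene, all were on the sense strand and 110 (96.5%) began at the first base of the annotated tRNA. These 110 ended between base 25 and base 32, with a median of 26, so that they covered the 5′ part of the tRNA. Examples from 5 kinds of tRNA with high values and the 2 most widely shared RNAs, those of tRNA-Asp (GTC) and tRNA-Lys (CTT), follow, 5′ to 3′, with the A box, the internal promoter element of tRNA genes, in capitals.

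tRNA-Gly (TCC), AT1G12590, chr1:4285933-4285958, minus strand: gcgucugUAGUCCAACGGuuaggaua
tRNA-Glu (CTC), AT4G18725, chr4:10302001-10302029, plus strand: uccguugUAGUCUAGCUGgucaggauacu
tRNA-Ala (TGC), AT3G63003, chr3:23285641-23285665, minus strand: ggggaugUAGCUCAAAUGguagagc
tRNA-Glu (TTC), AT1G75970, chr1:28520031-28520056, minus strand: uccguuaUCGUCCAGCGGuuaggaua
tRNA-Gln (CTG), AT4G00985, chr4:424761-424788, minus strand: gguucuaUGGUCUAGCGGuuaggacauu
tRNA-Asp (GTC), AT1G76000, chr1:28527767-28527792, plus strand: gucguugUAGUAUAGUGGuaaguauu
tRNA-Lys (CTT), AT1G01890, chr1:309323-309347, minus strand: gcccgucUAGCUCAGUUGguagagc

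The A box was searched by its consensus in the RNA strand only. It was present in 115 of 128 tRNA members (89.8%), in 62 of the 1678 other members (3.69%) and in 2.66% of the RNAs that led 24-nt clusters. In the RNAs shown above, the A box lies within the 5′ part of the tRNA that they cover. Its share at tRNA genes thus follows from their placement and is no separate result.

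**Figure D2:**
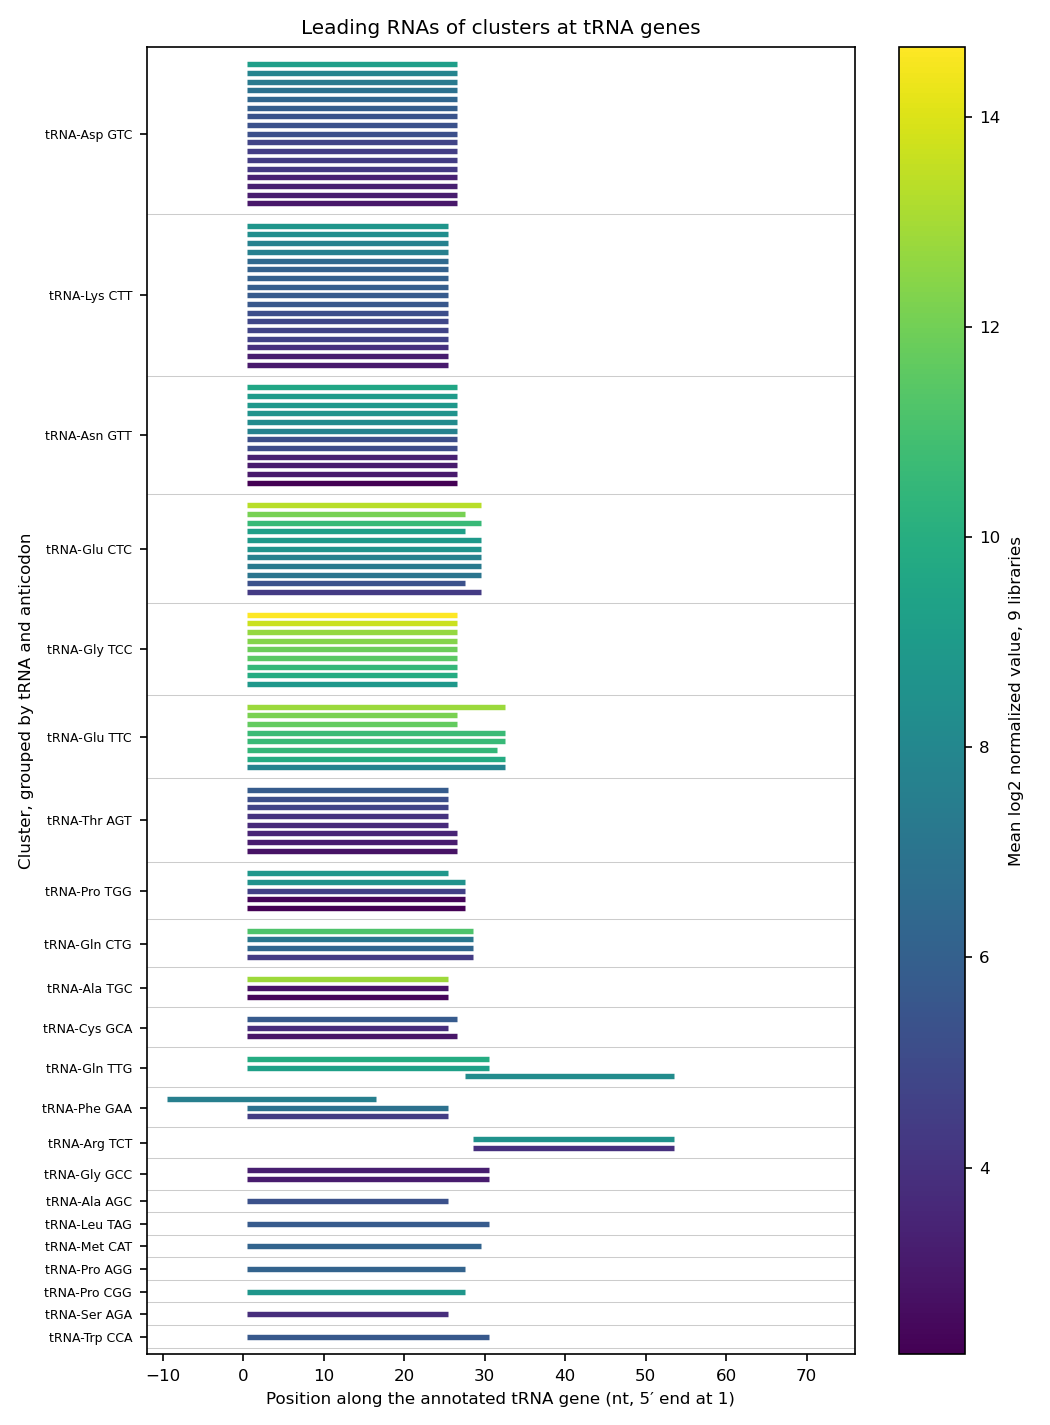
Span of the leading RNA along the annotated tRNA gene (x axis, nt from its first base) for the 114 clusters whose RNA was found exactly in a tRNA gene, with 1 line for each cluster, grouped by tRNA and anticodon (y axis) and coloured by the mean log2 normalized value over 9 libraries. The bars of 110 clusters start at base 1 and end between bases 25 and 32.

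The 128 tRNA members lay at 26 kinds of tRNA by anticodon, for 17 amino acids. For tRNA-Leu, tRNA-Met and tRNA-Trp there was 1 member each, and its RNA was also found exactly in an organelle genome. The tRNA-Ser (GCT) member reached only base 1 of the tRNA, with its last base, which differed from the genome. The most frequent were tRNA-Asp (GTC) and tRNA-Lys (CTT), with 17 members each, all led by 1 RNA in either case. The RNA of tRNA-Lys (CTT) occurs at 17 nuclear sites, on all 5 chromosomes, and every one of these sites carried a member. That of tRNA-Asp (GTC) occurs at 23 nuclear sites. tRNA-Asn (GTT) had 12 members, tRNA-Glu (CTC) 11 and tRNA-Gly (TCC) 9. Within 1 RNA the values still ranged widely between clusters, from 3.05 to 8.71 for tRNA-Lys (CTT) and from 8.88 to 14.66 for tRNA-Gly (TCC).

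The highest value of all members belonged to the tRNA-Gly (TCC) cluster at chr1:4285651-4285972. It had values of 14.73, 14.45 and 14.67 in +Fe, 14.65, 14.81 and 14.63 in -Fe and 14.46, 14.75 and 14.82 in Fe resupply. The tRNA-Glu (CTC) cluster at chr4:10301927-10302081 had 13.42, 13.18 and 13.39 in +Fe, 13.25, 13.47 and 13.22 in -Fe and 13.14, 13.39 and 13.59 in Fe resupply. The 3 conditions overlapped for both. The tRNA-Ala (TGC) cluster at chr3:23285580-23285666 had 12.88, 12.82 and 12.81 in +Fe, 12.92, 12.98 and 12.93 in -Fe and 12.96, 12.57 and 12.66 in Fe resupply. All 3 -Fe libraries were above all 3 +Fe libraries there, by a mean of 0.11 on the log2 scale, which did not pass the test (adjusted p = 0.846, limma). These values are for whole clusters and were not scaled by their width.

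Of the 15 members with the highest mean, 11 were tRNA genes. Another of the 15, at chr1:27688155-27688417 with a mean of 13.73, lay in the 3′ UTR of AT1G73650 on the strand opposite to that gene. Its RNA, uccgaugucguccagcgguuaggau, is also the start of an annotated tRNA-Glu (TTC) gene and occurs at 7 nuclear sites. It was the only member outside tRNA genes whose RNA was also that of an annotated one.

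Only 4 of the 114 RNAs found exactly did not begin at base 1. Both tRNA-Arg (TCT) members, 1 of 3 tRNA-Gln (TTG) members and 1 of 3 tRNA-Phe (GAA) members were of this kind. The RNAs of tRNA-Arg (TCT) ran from base 29 to base 53, that of tRNA-Gln (TTG) from base 28 to base 53, and that of tRNA-Phe (GAA) began before the annotated gene.

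Among the 102 RNAs that differed from the genome by 1 base, 14 were at tRNA genes, and 12 of these were of 2 kinds. They were singled out after their values were seen. All 8 members at tRNA-His (GTG) genes began 1 base before the annotated tRNA and had G where the genome has A. The substitution is A1G, with the base of the genome first and positions counted from the 5′ end of the RNA. All 4 members at tRNA-Arg (ACG) genes carried A8G, and base 8 of the RNA is base 34 of the tRNA, the first base of its anticodon. Their letters follow, with the substituted base in capitals.

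tRNA-His (GTG), AT1G02600, chr1:552639-552667, plus strand: Gguggcuguaguuuagugguaagaauucc
tRNA-His (GTG), AT2G28770, chr2:12339750-12339778, plus strand: Gguggcuguaguuuagugguuagaauccc
tRNA-Arg (ACG), AT5G65015, chr5:25972704-25972731, plus strand: cuggucuGcgaaaccagagauucugggu

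As background, a G is added to the 5′ end of tRNA-His after transcription, and the first anticodon base of tRNA-Arg (ACG) is deaminated to inosine, which sequencing reads as G. Whether these account for the substitutions was not tested. The tRNA-His cluster at AT1G02600 had values of 11.11, 11.01 and 11.26 in +Fe, 11.03, 11.29 and 10.95 in -Fe and 10.90, 11.28 and 11.32 in Fe resupply. The tRNA-Arg cluster at AT5G65015 had 7.35, 6.93 and 7.08 in +Fe, 7.28, 7.42 and 7.17 in -Fe and 6.97, 7.02 and 7.15 in Fe resupply. The 3 conditions overlapped at the former, and at the latter +Fe overlapped both others. Of the other substituted RNAs, 81 were in clusters classed in mRNA exons. Over all 102, the substituted base was the last one in 56 (54.9%), the first in 18 and neither in 28. The last base was C in 20, A in 15, U in 15 and G in 6 of the 56.

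At snoRNA genes the leading RNAs also lay at the ends of the transcript. All 38 were on the sense strand, 23 ended within 3 nt of the annotated 3′ end and 12 began within 3 nt of the annotated first base. Box D, the sequence CUGA close to the 3′ end of one class of snoRNAs, was searched within the last 8 bases of the RNA strand. It was there in 17 of 38 snoRNA members (44.7%), 16 of them among those ending at the annotated 3′ end, against 3.45% of the 1768 other members and 3.21% of the RNAs that led 24-nt clusters. Because box D lies close to the 3′ end by definition, its share among RNAs that end there is no separate result. Examples follow, with CUGA in capitals in those that end with it.

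AT3G03175, chr3:5387238-5387267, plus strand: aacugugacgauagcaagugccguCUGAgc
AT3G02445, chr3:3628140-3628164, minus strand: uauuuggcauuuuauaauCUGAcuu
AT5G44286, chr5:17840280-17840304, plus strand: augagaaugacuuguuaauCUGAuu
U60.2F (AT4G25631), chr4:13075604-13075633, plus strand: augggugaugcaaucuccaaguuuCUGAug
AT4G06310, chr4:8712787-8712813, minus strand: augcaaugaugagaugaaagcacgaag
AT3G01313, chr3:104745-104770, minus strand: cugcggugaugauuuuaugagaaauu

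The last 2 began at the 5′ end of the snoRNA. The highest snoRNA member, at AT3G03175 (chr3:5387111-5387279), had values of 12.86, 12.46 and 12.84 in +Fe, 12.84, 12.92 and 12.74 in -Fe and 12.18, 13.28 and 13.16 in Fe resupply. Its lowest and its highest library were both Fe resupply libraries. AT3G58196, whose leading RNA had 35 nt, lay between 7.73 and 7.94 in all 9 libraries.

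**Figure D3:**
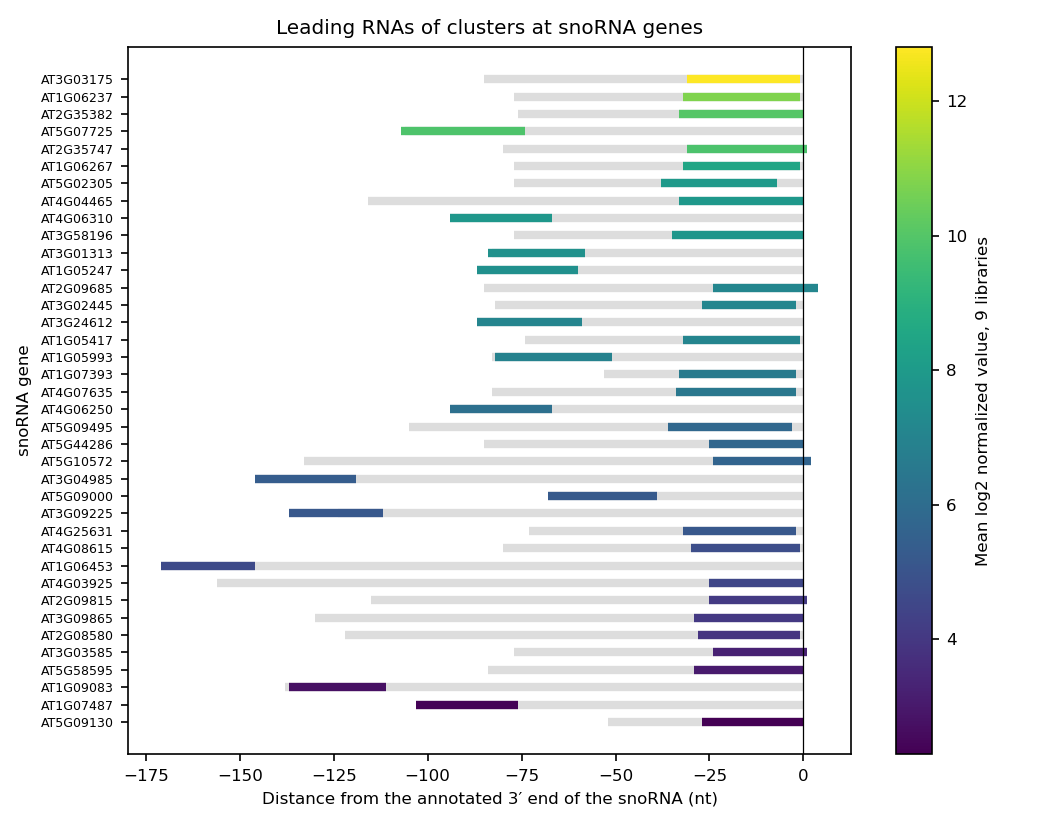
Span of the leading RNA (coloured bar) within the annotated snoRNA (grey bar) for 38 clusters, as the distance in nt from the annotated 3′ end (x axis), ordered and coloured by the mean log2 normalized value over 9 libraries. Of the coloured bars, 23 end within 3 nt of the 3′ end and 12 begin within 3 nt of the 5′ end.

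The 5 snRNA members were at 3 U2 genes, U1.6 and U6acat. The highest, at U2.5 (chr5:2975013-2975393), had values of 6.26, 6.36 and 6.53 in +Fe, 6.23, 6.24 and 6.57 in -Fe and 6.27, 6.34 and 6.41 in Fe resupply, with all conditions overlapping. Its RNA and those of the other 2 U2 genes lay at the annotated 3′ end of the snRNA or ran past it, and they shared their last letters.

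U2.5 (AT5G09585), chr5:2975182-2975207, plus strand: uauugcgagggcuuggcucaacccgc
U2.10b/12 (AT2G04455), chr2:853029-853055, plus strand: cuacugcaugggccuggcucaacccgc
U2.1 (AT1G05273), chr1:5758557-5758582, plus strand: cuacugcacgggccggcucaacccgc

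A pair of further abundant members on chromosome 4 ended in a run of U. That at chr4:1476257-1476592 lay in AT4G04595, annotated only as a non-coding RNA, with a mean of 11.68. That at chr4:1318876-1319188 lay in an intron of the gene model AT7SL-1, on the opposite strand, with a mean of 10.49. This symbol is that of the RNA of the signal recognition particle, which brings new secretory proteins to the membrane.

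AT4G04595, chr4:1476563-1476589, plus strand: uccgaucucaucugaaccaccauuuuu
AT7SL-1 (AT4G02970), chr4:1318879-1318903, minus strand: cgaucucauaugaaccaccauuuuu

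Of the 36 members outside annotated features, 16 shared a run of 12 letters with another of the 36. They lay in 2 stretches, with 9 between 13593538 and 14212923 on chromosome 3 and 7 between 12812159 and 12869281 on chromosome 5. The annotation names no feature under them. Examples are the clusters at chr3:13793866-13796283, with a mean of 7.67, and at chr3:13840044-13841083, with a mean of 5.97.

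chromosome 3, chr3:13795583-13795608, minus strand: ccaucagaacuccgcaguuaagcgua
chromosome 3, chr3:13840210-13840236, plus strand: cagaacuccgcaguuaagcgugcuuga

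The leading RNAs of 21 members were found exactly in an organelle genome too, 12 in the mitochondrial and 9 in the chloroplast genome, each with 1 nuclear site. The reads cannot be told apart by their letters. The most abundant was the cluster at chr5:3111013-3111075 outside any annotated feature, whose RNA uauucugguguccuaggcguagaggaac lies in the chloroplast 5S rRNA. It had values of 14.43, 14.45 and 14.54 in +Fe, 14.40, 14.39 and 14.38 in -Fe and 14.40, 14.41 and 14.54 in Fe resupply, with -Fe below all +Fe libraries (log2 fold change -0.08 ± 0.07 (SE), adjusted p = 0.864). Another, at chr5:26555519-26555684 in an exon of AT5G66530 with a mean of 10.24, was led by cccuaguacgagaggaccgggaaggacg from the chloroplast 23S rRNA.

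The 1522 members classed in mRNA exons were assigned to 1343 genes, 162 of which held 2 or more and none more than 4. Of the 1441 found exactly, 1437 (99.7%) had the strand of the mRNA and 4 the opposite one. The coding sequence held 1256 of them (87.2%), the 3′ UTR 104 and the 5′ UTR 79. In 24-nt clusters 2189 of 3923 exonic RNAs (55.8%) had the strand of the mRNA, and among RNAs under 20 nt 2327 of 2379 (97.8%). The median value of these members was 2.98 on the log2 scale, against 6.17 at tRNA genes and 6.32 at snoRNA genes. Their summed value, after the log2 values were turned back to linear ones, made up 17.1% to 21.0% of that of all members in a library. The 128 tRNA members made up 56.4% to 61.1%. The exon sum includes the cluster at chr1:27688155-27688417, whose RNA is antisense to AT1G73650 and is also the start of a tRNA-Glu (TTC) gene. In +Fe replicate 1 that cluster was at 13.74, where the log2 of the exon sum was 15.29. The exon sum also includes the cluster led by a chloroplast 23S rRNA sequence. The exon share is therefore not that of mRNA pieces alone.

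Shoot identity was checked on all placed clusters. The photosynthesis genes RBCS1A, LHCB1.1 and RCA each had a cluster, at means of 11.37, 10.71 and 12.12, and the root genes IRT1, COBL9 and EXPA7 had none. None of these clusters was a member. Replicates correlated at 0.994 or more over the features tested, and library medians lay between 3.83 and 3.87.

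The comparison of -Fe with +Fe asks which clusters responded to Fe deficiency. A call needed an FDR below 0.1 by limma together with a fold change of 0.5 or more on the log2 scale. By these limits 9 of 1806 members were higher in -Fe (0.498%) and 3 were lower (0.166%), 12 in all. Over all 33159 features tested, 0.268% were higher and 0.235% were lower, 0.504% in all. Of the clusters led by RNAs under 20 nt, 0.804% passed in either direction, and of the 24-nt clusters 0.372%. An unadjusted p under 0.05 was found for 178 members (9.86%) and for 8.02% of all features. All 12 members that passed lay in protein-coding genes, 11 in exons and 1 in an intron, and no tRNA, snoRNA or snRNA member passed. Of all members, 84.3% were classed in exons and 2.16% in introns. The tRNA, snoRNA and snRNA classes held 7.09%, 2.10% and 0.28%. With 12 calls, a difference between the classes cannot be read from this count. The leading RNAs of some of them follow, 5′ to 3′, to show that they are stretches of the mRNA strand, apart from ORG1, where the RNA lay in an intron on that strand.

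PHI-1 (AT1G35140), chr1:12852107-12852131, plus strand: ggauacuucuuauuguucgcuguug
BTS (AT3G18290), chr3:6277943-6277969, plus strand: aacgggugcugaaguucuucaaucuau
ORG1 (AT5G53450), chr5:21690038-21690064, plus strand: uucauuaauuuuuaucucuucuuguag
CGLD27 (AT5G67370), chr5:26879393-26879417, minus strand: cggguuuguaguaacaguaguagua
CSD2 (AT2G28190), chr2:12016335-12016360, plus strand: cuguguugaucuugucuguuugaaca
AT2G26500, chr2:11270564-11270593, plus strand: uaacguugugaugucucucaaaggaagaag
PSAF (AT1G31330), chr1:11215707-11215732, minus strand: ucagguuugacuccuugcaaggacuc

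The largest rise among them was at PHI-1 (PHOSPHATE-INDUCED 1), a protein of the EXORDIUM-like family. The cluster (chr1:12852012-12853092) had values of 4.61, 4.34 and 4.78 in +Fe, 5.89, 6.27 and 5.86 in -Fe and 4.95, 4.45 and 5.29 in Fe resupply. All -Fe libraries were above all others. The log2 fold change of -Fe against +Fe was 1.43 ± 0.16 (SE), adjusted p = 4.06e-05.

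BTS, an E3 ubiquitin ligase that binds Fe and holds back the Fe deficiency response, rose too. Its cluster (chr3:6276884-6278118) had 4.81, 4.79 and 4.97 in +Fe, 5.49, 6.30 and 5.67 in -Fe and 4.43, 4.99 and 5.20 in Fe resupply. The change from +Fe to -Fe was 0.96 ± 0.18 (SE), adjusted p = 0.0104, and the -Fe libraries were above all others.

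ORG1, annotated as an OBP3-responsive gene, had 4.59, 4.52 and 4.88 in +Fe, 5.46, 6.23 and 5.29 in -Fe and 4.57, 4.99 and 5.04 in Fe resupply (chr5:21689872-21691489). The change was 1.00 ± 0.18 (SE), adjusted p = 0.0074. CGLD27, a protein conserved in the green lineage, had 4.20, 3.90 and 4.20 in +Fe, 4.60, 5.15 and 4.60 in -Fe and 4.13, 4.09 and 3.998 in Fe resupply (chr5:26878966-26879510), with a change of 0.68 ± 0.13 (SE), adjusted p = 0.0121. For both, the -Fe libraries were above all +Fe and Fe resupply libraries.

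CSD2, the chloroplast copper/zinc superoxide dismutase, was also above +Fe in Fe resupply. Its cluster in the 3′ UTR (chr2:12016278-12016508) had 3.24, 3.21 and 3.17 in +Fe, 3.77, 3.83 and 3.87 in -Fe and 4.09, 3.33 and 4.12 in Fe resupply. The -Fe libraries were above the +Fe ones, with a change of 0.61 ± 0.14 (SE), adjusted p = 0.0625, and so were the Fe resupply libraries, 2 of which were above all -Fe libraries.

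The other 4 rises were at AT2G43280, a FAR1 family protein, at BT1, a protein with BTB and TAZ domains, at the RING protein ATL6 and at AT3G04210, a disease resistance protein of the TIR-NBS class. AT2G43280 had 4.83, 4.56 and 4.75 in +Fe and 5.26, 5.41 and 5.19 in -Fe, a change of 0.58 ± 0.10 (SE), adjusted p = 0.0074. BT1 had 6.09, 6.30 and 5.97 in +Fe and 6.79, 6.49 and 6.78 in -Fe, a change of 0.57 ± 0.11 (SE), adjusted p = 0.0154. ATL6 had 4.44, 4.64 and 4.88 in +Fe and 5.20, 5.25 and 5.11 in -Fe, a change of 0.53 ± 0.11 (SE), adjusted p = 0.0243. The 2 conditions did not overlap at any of these 3. AT3G04210 had 5.85, 5.84 and 6.13 in +Fe and 6.40, 6.64 and 6.34 in -Fe, also without overlap, a change of 0.52 ± 0.12 (SE), adjusted p = 0.0447.

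**Figure D4:**
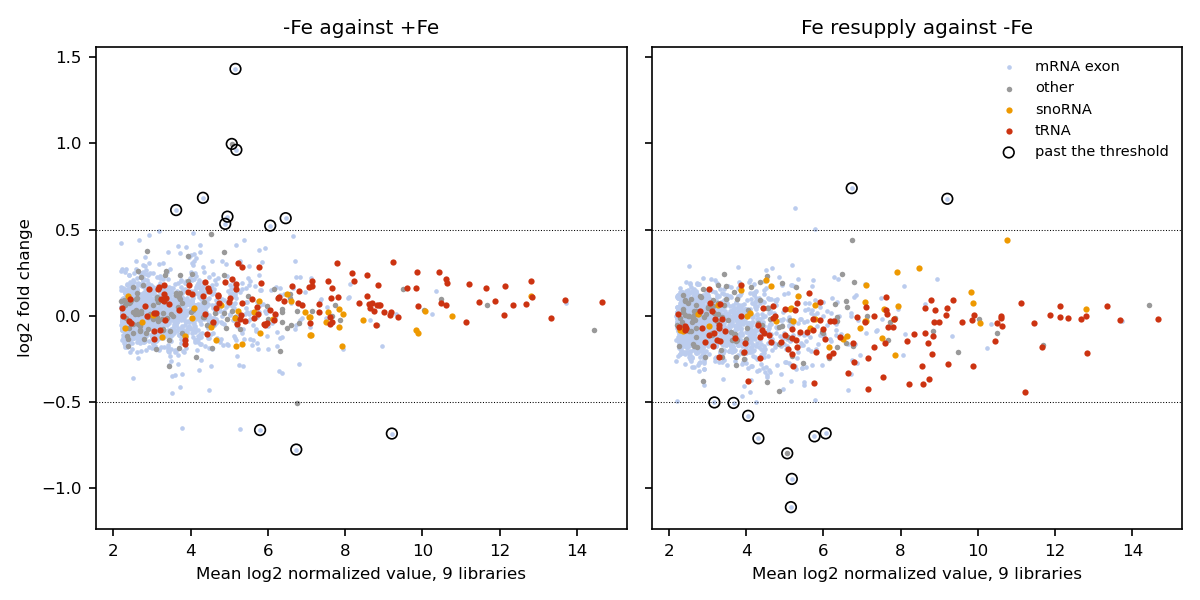
The log2 fold change (y axis) of the 1806 members against their mean log2 normalized value (x axis) with -Fe against +Fe on the left and Fe resupply against -Fe on the right, coloured by annotation class. Circles mark the 12 and 11 members past the threshold, dotted lines mark 0.5 on either side of 0, and all tRNA members lie between the lines.

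The 3 falls in -Fe included 2 genes of the photosynthetic electron transport chain. AT2G26500, the PetM subunit of the cytochrome b6f complex, had 6.87, 7.13 and 7.01 in +Fe, 6.40, 5.90 and 6.39 in -Fe and 7.17, 6.70 and 7.04 in Fe resupply (chr2:11270236-11270999). Its change from +Fe to -Fe was -0.78 ± 0.13 (SE), adjusted p = 0.00636. PSAF, a subunit of photosystem I, had 9.39, 9.57 and 9.36 in +Fe, 8.94, 8.33 and 8.99 in -Fe and 9.66, 9.12 and 9.52 in Fe resupply (chr1:11214577-11216026), with a change of -0.68 ± 0.15 (SE), adjusted p = 0.0407. AT1G09750, an aspartyl protease, had 6.18, 5.96 and 6.08 in +Fe and 5.70, 4.81 and 5.72 in -Fe (chr1:3157539-3159171), with a change of -0.66 ± 0.17 (SE), adjusted p = 0.0918. The -Fe libraries were below all +Fe libraries at each of the 3, and -Fe replicate 2 was the lowest library at each.

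Among members whose conditions did not overlap, 2 more had large falls that did not pass. ABCI8, part of the chloroplast machinery that builds Fe-S clusters, had 5.32, 5.76 and 5.42 in +Fe and 4.98, 4.45 and 5.11 in -Fe, with a fold change of -0.65 ± 0.17 (SE), adjusted p = 0.111. The non-coding RNA AT4G07070 had 6.63, 6.94 and 7.24 in +Fe and 6.18, 6.60 and 6.51 in -Fe, with -0.50 ± 0.15 (SE), adjusted p = 0.208. In all, 183 members (10.1%) had -Fe above +Fe without overlap and 74 (4.10%) had it below, against 7.15% and 6.41% of all features. These shares were 11.9% and 4.62% in clusters led by RNAs under 20 nt, and 4.03% and 7.86% in 24-nt clusters.

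**Figure D5:**
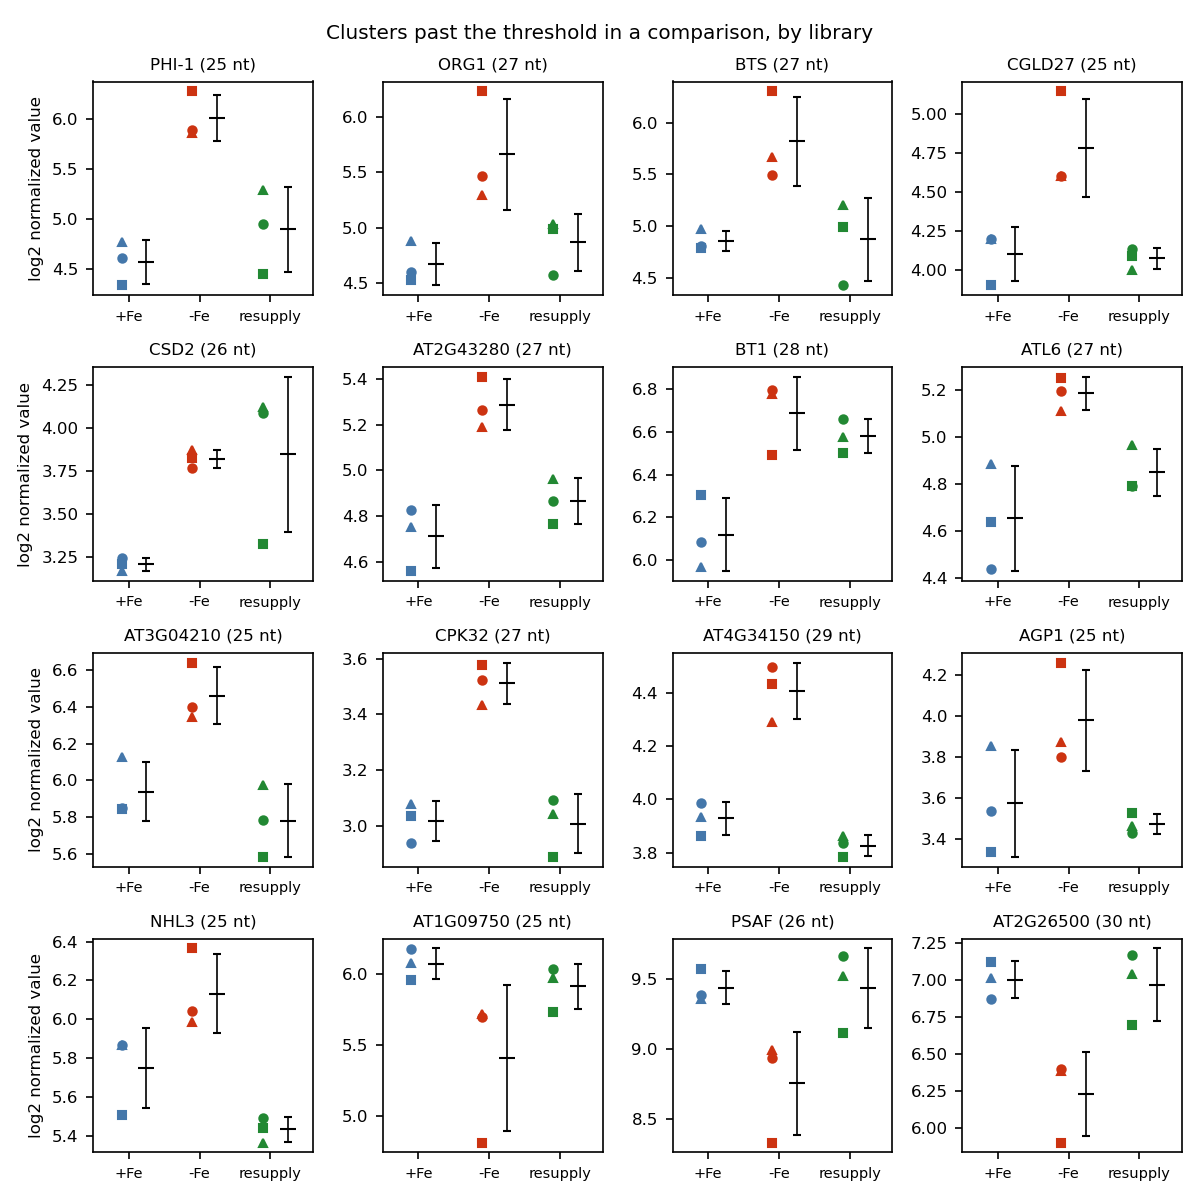
The log2 normalized value (y axis) of the 16 members past the threshold between -Fe and either other condition, in +Fe (blue), -Fe (red) and Fe resupply (green). Circles, squares and triangles are replicates 1, 2 and 3, bars are the mean and SD of 3 libraries, and y axes differ between panels. PHI-1 rises from 4.34 to 4.78 in +Fe to 5.86 to 6.27 in -Fe.

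Fe resupply against -Fe shares the -Fe libraries with the comparison above, so each is given by its own values. Of the members, 9 were lower in Fe resupply (0.498%) and 2 were higher (0.111%), 11 in all, against 0.476% and 0.0513% of all features, 0.528% in all. Of the clusters led by RNAs under 20 nt, 1.29% passed in either direction, and of the 24-nt clusters 0.131%. The unadjusted p was under 0.05 for 219 members (12.1%) and for 11% of all features. PHI-1 changed by -1.11 ± 0.16 (SE), adjusted p = 0.00249. The falls at BTS (-0.95 ± 0.18 (SE), adjusted p = 0.0144), at CGLD27 (-0.71 ± 0.13 (SE), adjusted p = 0.0123) and at ORG1 (-0.80 ± 0.18 (SE), adjusted p = 0.0438) followed. AT3G04210, at 5.78, 5.58 and 5.98 in Fe resupply, changed by -0.68 ± 0.12 (SE), adjusted p = 0.00836. At these 5 the Fe resupply libraries were below all -Fe libraries.

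Another 4 members fell in Fe resupply that had not passed both limits in -Fe. NHL3, a protein of a family linked to pathogen defence, had 6.04, 6.36 and 5.99 in -Fe and 5.49, 5.44 and 5.36 in Fe resupply, a change of -0.70 ± 0.12 (SE), adjusted p = 0.00693. Its +Fe libraries, at 5.87, 5.51 and 5.87, were also above all Fe resupply libraries. AT4G34150, a protein with a calcium-dependent lipid-binding domain, had 4.50, 4.43 and 4.29 in -Fe and 3.83, 3.78 and 3.86 in Fe resupply, a change of -0.58 ± 0.09 (SE), adjusted p = 0.00451. The calcium-dependent protein kinase CPK32 had 3.52, 3.58 and 3.43 in -Fe and 3.09, 2.89 and 3.04 in Fe resupply, a change of -0.50 ± 0.09 (SE), adjusted p = 0.0093. Against +Fe, the latter pair had passed the FDR in -Fe but not the fold limit, at 0.48 and 0.49. The arabinogalactan protein AGP1 had 3.80, 4.26 and 3.87 in -Fe and 3.43, 3.53 and 3.47 in Fe resupply, a change of -0.51 ± 0.12 (SE), adjusted p = 0.0754. The 2 conditions did not overlap at any of the 4.

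The 2 rises in Fe resupply were at AT2G26500, by 0.74 ± 0.13 (SE), adjusted p = 0.0132, and at PSAF, by 0.68 ± 0.15 (SE), adjusted p = 0.0425. At both, the Fe resupply libraries were above all -Fe libraries and overlapped the +Fe libraries. ABCI8 had 5.85, 5.09 and 5.47 in Fe resupply and AT1G09750 6.03, 5.73 and 5.97, and their fold changes of 0.63 and 0.51 did not pass (adjusted p = 0.11 and 0.22, limma). AT4G07070, at 6.76, 7.19 and 6.67 in Fe resupply, was above all -Fe libraries, with 0.44 ± 0.15 (SE), adjusted p = 0.232. TRXF1, a chloroplast thioredoxin, had 5.004, 4.997 and 5.06 in -Fe and 5.33, 5.17 and 5.45 in Fe resupply without overlap, and 0.29 ± 0.09 (SE), adjusted p = 0.208. Over all members, 265 (14.7%) had Fe resupply below -Fe without overlap and 42 (2.33%) had it above, against 8.7% and 7.27% of all features. These shares were 18.0% and 2.57% in clusters led by RNAs under 20 nt, and 3.22% and 10.5% in 24-nt clusters.

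Fe resupply against +Fe asks what still differed after 24 hours with Fe, and shares libraries with both comparisons above. No member passed both limits by limma, and 105 (5.81%) had an unadjusted p under 0.05. Over all features 0.0332% were higher and 0.0935% lower, 0.127% in all, and 6.63% had such a p. Without the limit on fold change 1 member passed, a second CSD2 cluster in the coding sequence (chr2:12015829-12015910). It had 2.20, 2.24 and 2.19 in +Fe, 2.41, 2.45 and 2.49 in -Fe and 2.71, 2.52 and 2.50 in Fe resupply, and its change from +Fe to Fe resupply was 0.37 ± 0.07 (SE), adjusted p = 0.0608. The CSD2 cluster in the 3′ UTR differed by 0.64 ± 0.14 (SE), adjusted p = 0.114. The 3 conditions followed each other without overlap at the former, in the order +Fe, -Fe, Fe resupply.

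The other members with the largest differences between Fe resupply and +Fe, among those without overlap, did not pass either. BT1 had 6.66, 6.50 and 6.57 in Fe resupply, with 0.46 ± 0.11 (SE), adjusted p = 0.158. EXL2, of the EXORDIUM-like family, differed by 0.28 and Cand1 (AT1G57680) by 0.33. AT1G19960 differed by -0.43, with 3.97, 3.48 and 3.99 in +Fe and 3.28, 3.48 and 3.39 in Fe resupply, ATA20 by -0.40 and the tRNA-Pro (CGG) cluster at chr4:17149467-17149574 by -0.34. The ribosomal protein genes AT4G02230 and AT3G05560 differed by -0.37 and -0.35. Fe resupply was above +Fe without overlap at 56 members (3.10%) and below at 133 (7.36%), against 5.35% and 5.73% of all features. These shares were 2.25% and 9.03% in clusters led by RNAs under 20 nt, and 6.87% and 3.33% in 24-nt clusters.

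Lists of genes raised or lowered by Fe deficiency were taken from the mRNA-seq of the same work, on shoots grown in the same 3 conditions, so they are not independent evidence of a direction. Of 145 raised genes, 14 held a member, with 19 members in all. In -Fe 4 of the 19 rose (BTS, ORG1, CGLD27 and CSD2) and none fell, where 0.268% of all features rose and 0.235% fell. Of the 19, 17 had a fold change above 0, against 49.5% of all features, and the median was 0.23, against 0.02 over all members and -0.0015 over all features. In Fe resupply against -Fe 3 of the 19 fell, where 0.476% of all features did. There 4 of the 19 were above 0, against 50.8% of all features, and the median was -0.16, against -0.05 over all members and 0.0022 over all features. Members that did not pass included the vacuolar Fe exporter NRAMP4, with 2 clusters at 0.34 and 0.40, and ZIF1, a transporter that moves nicotianamine into the vacuole, with 0.29 and 0.20. The transcription factor BHLH101 was at 0.17 and AT1G47400 at 0.42. The latter passed the FDR in Fe resupply against -Fe but not the fold limit (-0.495 ± 0.11 (SE), adjusted p = 0.0472). The calcium-binding proteins AT4G27280 and AT4G32060 had 0.06 and 0.23 in -Fe against +Fe.

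Of 83 lowered genes, 8 held a member, with 9 members in all. In -Fe 2 of the 9 fell (AT2G26500 and AT1G09750) and none rose, where 0.235% of all features fell and 0.268% rose. None of the 9 was above 0, against 49.5% of all features, and the median was -0.34, against -0.0015. In Fe resupply against -Fe 1 of the 9 rose, where 0.0513% of all features did. All 9 were above 0, against 50.8% of all features, with a median of 0.22, against 0.0022. Those that did not pass in -Fe included the aconitase ACO3 at -0.31 and RPE, an enzyme of the Calvin cycle and the pentose phosphate pathway, at -0.34 for the higher of its 2 clusters. Of a list of 22 photosynthesis genes, 1 held a member. It was DRT112, a plastocyanin that carries electrons to photosystem I, with 10.26, 10.24 and 10.31 in +Fe, 10.42, 10.37 and 10.45 in -Fe and 10.43, 10.15 and 10.52 in Fe resupply. Its fold change in -Fe was 0.14 ± 0.10 (SE), adjusted p = 0.786.

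The members as a whole moved little. From +Fe to -Fe the median log2 fold change was 0.02, with 1053 of 1806 above 0 (58.3%). From +Fe to Fe resupply it was -0.03, with 712 above 0 (39.4%), and from -Fe to Fe resupply -0.05, with 597 above 0 (33.1%). The shares above 0 were, in this order, 49.5%, 49.2% and 50.8% over all features and 60.0%, 33.9% and 28.6% in clusters led by RNAs under 20 nt. Over all features the medians, in this order, were -0.0015, -0.0017 and 0.0022. In clusters led by 24-nt RNAs they were -0.02, 0.02 and 0.04, and in those led by RNAs under 20 nt 0.03, -0.04 and -0.07. With library medians set equal, the 3 medians of the members became 0.02, -0.01 and -0.03. The pooled SD between library medians of the members was 0.0296, and the first 2 shifts are no larger than it. This SD is the spread of single libraries and not the error of a difference between condition means, so it does not test the shifts.

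By class, the 128 tRNA members had a median of 0.08 in -Fe against +Fe, with 101 above 0 and a range from -0.16 to 0.31. Above 0 there were 58.3% of all members and 49.5% of all features. In Fe resupply against -Fe the tRNA median was -0.07, with 30 above 0 and a range from -0.44 to 0.18. The 128 carried only 39 different RNAs, so clusters that share an RNA are not separate observations. No tRNA member passed in either, or in Fe resupply against +Fe. The summed tRNA value in log2 was 16.97, 16.71 and 16.93 in +Fe, 16.91, 17.10 and 16.88 in -Fe and 16.73, 16.98 and 17.05 in Fe resupply, so that the 3 conditions overlapped. The median of the 38 snoRNA members was -0.01 in -Fe against +Fe. It was 0.01 when Fe resupply was set against -Fe, with none past the threshold. The summed snoRNA value was 13.52 in Fe resupply replicate 1, the lowest of the 9 libraries, and 14.21 in Fe resupply replicate 2, the highest. In mRNA exons 868 of 1522 members were above 0 in -Fe against +Fe, with a median of 0.02. When Fe resupply was set against -Fe, 497 were above 0, with a median of -0.05. The 2 members at miRNA precursors were at MIR5630a and MIR2936. That at MIR5630a, on the opposite strand, had 5.39, 5.37 and 5.74 in +Fe, 5.60, 5.78 and 5.47 in -Fe and 5.45, 5.22 and 5.36 in Fe resupply.

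The 5 longest leading RNAs, with ties taken by the higher mean, had 35 or 36 nt. Besides AT3G58196 they were at AT3G58500 (PP2A-4, a protein phosphatase subunit), AT5G49760 (a receptor-like kinase), AT4G17560 (a ribosomal protein of the L19 family) and AT4G39160 (a homeodomain-like protein, opposite strand). Their fold changes in -Fe against +Fe lay between -0.06 and 0.13, and none passed.

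Each library was left out in turn. At 10 of the 12 members past the threshold against +Fe, and at 10 of the 11 past it against Fe resupply, replicate 2 was the -Fe library farthest from the other condition. Without that library, the change in -Fe was -0.47 at PSAF (adjusted p = 0.2) and -0.37 at AT1G09750 (adjusted p = 0.316), against -0.68 and -0.66 with all libraries. The change at AT3G04210 was then 0.43 (adjusted p = 0.222), by limma. PHI-1, BTS, ORG1, CGLD27 and AT2G26500 passed in -Fe against +Fe whichever library was left out, with changes of 1.30 to 1.53 at PHI-1, 0.72 to 1.13 at BTS, 0.71 to 1.18 at ORG1, 0.50 to 0.78 at CGLD27 and -0.86 to -0.61 at AT2G26500. The other calls were lost in some fits, each of which kept 2 libraries in 1 condition. CSD2 passed only without +Fe replicate 1, and in the 5 fits without another library it was at 0.59 to 0.64, against 0.61 with all libraries. AT1G09750 was at -0.61, -0.72 and -0.66 without +Fe replicates 1, 2 and 3, and PSAF was at -0.61 and -0.72 without +Fe replicates 2 and 3, all with an adjusted p above the limit. ATL6 was at 0.43 without +Fe replicate 1 and at 0.53 without -Fe replicate 1, and BT1 was at 0.49 without +Fe replicate 3, 0.51 without -Fe replicate 1 and 0.52 without -Fe replicate 3, with an adjusted p of 0.11 to 0.117 for both genes. AT3G04210 was at 0.48 without +Fe replicate 1, 0.47 without +Fe replicate 2 and 0.55 without -Fe replicate 1, and AT2G43280 missed the fold limit without +Fe replicate 2 (0.499, adjusted p = 0.056). Without +Fe replicate 1, AT4G07070 passed at -0.66 (adjusted p = 0.0444) and ABCI8 at -0.74 (adjusted p = 0.0727).

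Between Fe resupply and -Fe, 7 members passed without -Fe replicate 2, against 11 with all libraries. There ORG1 was at -0.51 (adjusted p = 0.161), PSAF at 0.47 (adjusted p = 0.186), AGP1 at -0.36 (adjusted p = 0.297) and CPK32 at -0.47 (adjusted p = 0.0548), against -0.80, 0.68, -0.51 and -0.50 with all libraries. CPK32 missed only the fold limit there, as it did without -Fe replicate 1 (-0.496) and without Fe resupply replicate 2 (-0.44). PSAF was at 0.64 without Fe resupply replicate 3 (adjusted p = 0.173). AGP1 was at -0.56 without -Fe replicate 3 and at -0.48, -0.53 and -0.501 without Fe resupply replicates 1, 2 and 3, with an adjusted p of 0.11 to 0.211. PHI-1, BTS, CGLD27, AT3G04210, NHL3, AT4G34150 and AT2G26500 passed throughout. Between Fe resupply and +Fe, 3 members passed without +Fe replicate 2, 2 without Fe resupply replicate 1 and 1 without Fe resupply replicate 2. The last was CSD2, at 0.90 (adjusted p = 3.72e-05). BT1, at 0.55 (adjusted p = 0.0695), and AT1G19960, at -0.60 (adjusted p = 0.011), were among the 3.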

How the data were processed

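Small RNA-seq was measured in Col-0 shoots, with 3 conditions and 3 biological replicates each. The authors removed adapters with Cutadapt, aligned and quantified reads with ShortStack, with a search size of 17 to 29 nt on TAIR10 (leading RNAs reached 36 nt), and compared raw counts with DESeq2; versions are not given in the sources used here. The deposited values are log2 normalized values, and the transformation is not named. If low values were shrunk, their fold changes are understated. Columns were assigned by their headers, and none was left unassigned.

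Members were taken by the length of the leading RNA, and members and gene lists were chosen with earlier results of these data known. Leading RNAs were searched in their own cluster in TAIR10.1 (RefSeq), and classes were given by an overlap of 1 nt on either strand. Where the RNA was not found exactly, the overlap was that of the whole cluster. The tests used limma 3.58.1 (R 4.3.3), in 1 fit over 9 libraries with eBayes (trend) and Benjamini-Hochberg adjustment over 33159 features. The 12 features with 1 value in all libraries were left out. A call needed an FDR below 0.1 and 0.5 or more on the log2 scale. In simulated data for -Fe against +Fe with 33159 features, 98 of 100 changes of 0.75 and 100 of 100 changes of 1.5 were found, with 9 false calls. The simulated noise was normal and independent between features and libraries, and the change was the same in each -Fe library. A library that deviates at many features at once was not simulated, so these numbers do not cover that case. Recovery of changes between 0.5 and 0.75 was not tested.

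Named members were those past the threshold, the 5 largest rises and falls without overlap in each comparison, the 15 highest means, the 5 longest RNAs, the 3 most shared RNAs, the list members of highest mean and the highest member of each class. Other names were chosen after their values were seen. Alternatives were value filters, pseudocounts, scalings, limits, a replicate block, subsets of members and leaving out each library. Tables and figures used Python 3.11.15 with pandas 2.3.3, numpy 2.4.6 and matplotlib 3.10.9.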

Additional observations from a re-analysis of the deposited data

How the results depend on the processing

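The number of members past the threshold in -Fe against +Fe (12) was 7 with a pseudocount of 5, 2 with a mean linear value of at least 50, 27 without a fold limit and 1 with a log2 fold change of at least 1. It lay between 9 and 16 with 1 library left out. In Fe resupply against -Fe (11) it was 4 with a mean of at least 50, 28 without a fold limit, 1 with a log2 fold change of at least 1 and 6 for leading RNAs of 26 nt or longer, and between 7 and 15 with 1 library left out. In Fe resupply against +Fe (0) it was 1 with library medians set equal, 1 with a replicate block and 1 without a fold limit, and between 0 and 3 with 1 library left out. The median of the members in -Fe against +Fe (0.0197) was 0.0495 with a mean of at least 50. With a replicate block the counts, in the order given above, were 15, 13 and 1. Same-numbered libraries correlated between -0.0592 and 0.1038 after removal of the condition means, so the numbers were not taken as pairs. The causes of these shifts were not tested, other than that the stricter limits and filters leave fewer members by construction. Of the alternatives for single named members, 566 left the call as it was, 79 lost it, 14 gained it and none turned the direction. A left-out library leaves 2 in its condition. Depth was not known, so the limits that depth sets were not assessed.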
